A study of Mus musculus with 6 samples.

Results

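The oligodendrocyte lineage and precursor genes examined here were Olig1, Olig2, Sox10, Nkx2-2, Pdgfra, Cspg4, Gpr17 and Vcan. They were chosen by symbol as transcription factors of the lineage and markers of its precursor cells, with the genes of compact myelin left out. All 8 were found among the 52390 genes listed, and all 8 were among the 21844 genes with enough counts to be tested. Their levels were compared between brain tissue of 3 AP1AR-DT OE mice and 3 control mice, sequenced from total RNA. All mice were male C57BL/6 mice injected at 8 weeks of age in the medial prefrontal cortex (mPFC) with an adeno-associated virus (AAV). Control mice, labelled wild type, received an empty vector. AP1AR-DT OE mice received a recombinant virus that carried the human long non-coding RNA AP1AR-DT, which the labels call AC109347.1. The lncRNA was driven by the neuron-active human synapsin I promoter, and the vector also held EGFP under the CMV promoter. Oligodendrocyte precursors are glia, not neurons. The comparison addresses whether expression of a lncRNA linked to bipolar disorder changes the transcriptome of the mouse brain.

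Oligodendrocyte precursor cells are dividing glial cells spread through the adult brain that differentiate into myelin-forming oligodendrocytes. Olig1 and Olig2 are basic helix-loop-helix factors, of which Olig2 specifies the lineage, and Sox10 is an HMG-box factor that is kept from the precursor to the mature cell and activates myelin genes. Nkx2-2 is a homeodomain factor of differentiating precursors. PDGFRA is the receptor for PDGF-A, the mitogen of precursors, and Cspg4 encodes the NG2 proteoglycan, which pericytes also carry. GPR17 is a receptor of the transient stage between precursor and newly formed oligodendrocyte, and Vcan encodes versican, a hyaluronan-binding proteoglycan of the extracellular matrix. In bulk tissue, fewer cells of a type and less RNA per cell cannot be told apart.

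Basic helix-loop-helix factors such as OLIG2 bind E-boxes, whose letters are CANNTG. Both strands were covered, since the motif is its own reverse complement. The window searched was the 250 bases before the RefSeq start site on GRCm38.p6, and such windows were found for 5 of the 8 genes. That of Nkx2-2 held 3 E-boxes, those of Pdgfra and Vcan held 1 each, and those of Olig2 and Cspg4 held 0. Of all 32851 windows of this length, 66.2% held at least 1. A match of letters is not a site of binding. The distal 150 bases of 2 windows are shown in 5′ to 3′ direction with E-boxes in capitals, because Pdgfra was the only one of the 8 genes whose groups did not overlap and Nkx2-2 was the one that varied most between mice. The Pdgfra stretch is chr5:75152001-75152150 on the plus strand and the Nkx2-2 stretch is chr2:147186503-147186652 on the minus strand.
Pdgfra: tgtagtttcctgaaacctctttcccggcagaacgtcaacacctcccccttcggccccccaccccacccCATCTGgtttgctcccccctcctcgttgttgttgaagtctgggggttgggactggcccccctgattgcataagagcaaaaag
Nkx2-2: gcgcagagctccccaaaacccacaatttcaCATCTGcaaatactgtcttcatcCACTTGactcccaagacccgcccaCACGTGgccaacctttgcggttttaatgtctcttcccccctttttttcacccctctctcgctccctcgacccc

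The libraries held between 42061721 and 54668294 counts, and the 8 genes had between 213 counts (Nkx2-2 in control 1) and 22914 counts (Olig1 in control 3). Control libraries are numbered as the mice are, while the AP1AR-DT OE libraries could not be matched to single mice and are called A, B and C. Being human, the lncRNA had no row in the table of mouse genes, and the labels could not be checked by it. Some libraries stood apart in markers of brain regions, given here as normalized CPM, which are counts divided by TMM-adjusted library totals. The summed level of 10 choroid plexus markers was 4051 in control 3 and between 54.2 and 80.5 in the other libraries. The summed level of 10 hypothalamic markers was 649 in control 2, 102 in control 3 and between 34.7 and 60.7 elsewhere. Log2 levels centred on the mean of each gene over the 6 libraries were also averaged over these markers. That average was 2.62 in control 2, 1.52 in control 3 and between -1.47 and -0.66 elsewhere, so controls 2 and 3 both stood apart. Slc17a7, a marker of cortical excitatory neurons, was at 3.86 in control 2 and 28.2 in control 1, while it was at 233 in control 3 and between 87.2 and 463 in AP1AR-DT OE mice. The labels name the tissue as brain, and the study names it as mPFC in one place and as cortical tissue in another. Mitochondrial genes took 9.86%, 7.20% and 7.63% of the counts in controls 1 to 3 and 6.67%, 5.75% and 6.80% in libraries A to C, so every control lay above every AP1AR-DT OE library. With mitochondrial genes left out of the fit, 0 of the 8 genes were DEGs. The part of tissue composition in the values below was not tested.

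None of the 8 genes was a differentially expressed gene (DEG) in AP1AR-DT OE mice. DEGs were genes with |Log2FC| above 0.32 and an unadjusted P under 0.05 in the two-sided quasi-likelihood test of edgeR, thresholds at which 12.2% of all tested genes were DEGs. By the same test 0 of the 8 reached an unadjusted P under 0.05, and DESeq2 and limma-voom also gave 0 DEGs among them. Their adjusted P-values by edgeR lay between 0.349 for Pdgfra and 0.906 for Sox10. Log2FC was positive for Cspg4, Gpr17 and Sox10 and negative for Olig1, Olig2, Pdgfra, Vcan and Nkx2-2. The median over the 8 was -0.13, against -0.014 over all tested genes. Control and AP1AR-DT OE values were separate for 1 of the 8, Pdgfra, and for 22.4% of all tested genes.

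**Figure D1:**
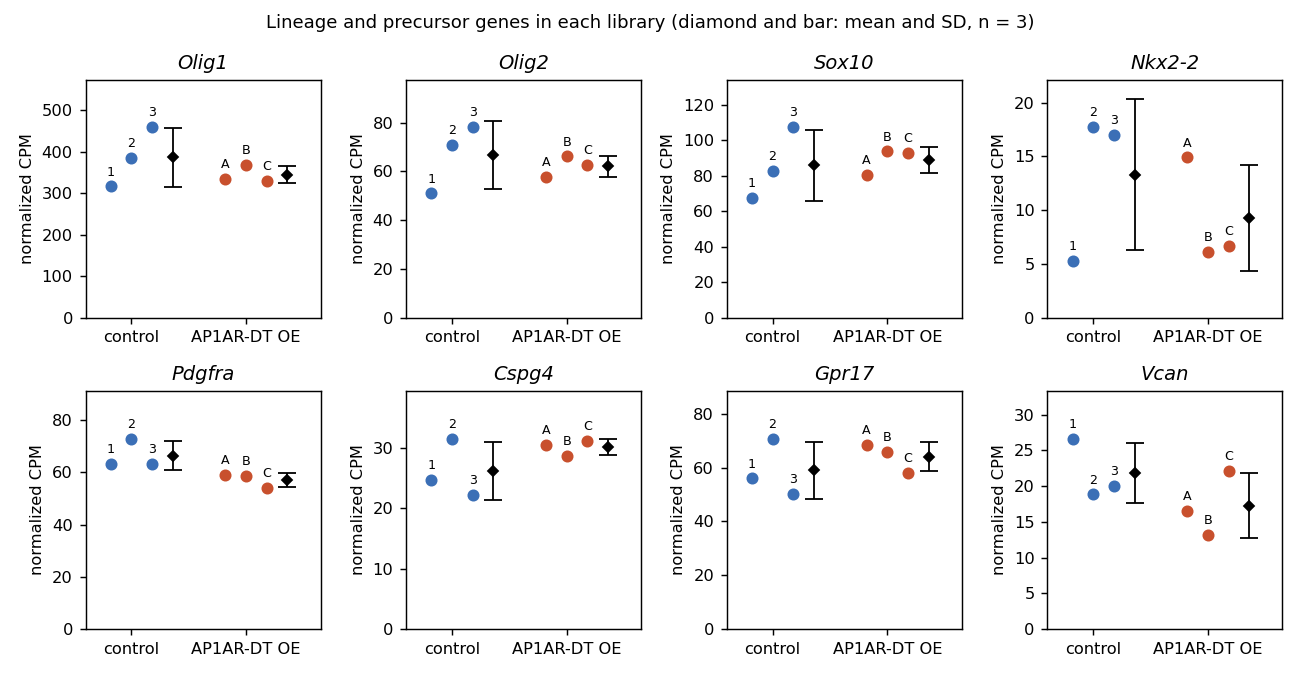
Normalized CPM (vertical axes, from 0) of the 8 lineage and precursor genes in the 3 control and 3 AP1AR-DT OE libraries; points are libraries, labelled 1 to 3 and A to C, and diamonds with bars are the mean and SD of each group. The Pdgfra points of the AP1AR-DT OE mice lie below those of every control, and the groups overlap for the other genes.

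Among the transcription factors, Olig1 had the highest level. Its normalized CPM was 316, 386 and 459 in controls 1 to 3 and 335, 369 and 329 in AP1AR-DT OE libraries A to C. Control 1 lay below every AP1AR-DT OE library and control 3 above every one, so the groups overlapped. The means were 387 ± 71.3 in control and 344 ± 21.1 in AP1AR-DT OE mice (SD, n = 3 each), and Log2FC was -0.17 (SE 0.14, 95% interval -0.51 to 0.17, edgeR adjusted P = 0.594, exact two-sided permutation p = 0.5). Olig2 lies next to Olig1 on chromosome 16 and was measured at 50.9, 70.7 and 78.0 in controls 1 to 3 and at 57.5, 66.1 and 62.5 in libraries A to C. All values of AP1AR-DT OE mice fell inside the range of the controls, with a Log2FC of -0.10 (SE 0.16, 95% interval -0.49 to 0.28, edgeR adjusted P = 0.794, exact permutation p = 0.7).

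Sox10 showed the same placement of the groups as Olig2. It was at 67.7, 82.5 and 107 in controls 1 to 3, and at 80.5, 93.7 and 92.6 in libraries A to C, again inside the range of the controls. Log2FC was 0.051 (SE 0.17, 95% interval -0.35 to 0.46, edgeR adjusted P = 0.906, exact permutation p = 0.8). Nkx2-2 differed most between mice of the same group. Normalized CPM of this gene was 5.24 in control 1 but 17.7 and 16.98 in controls 2 and 3, and 14.9 in library A but 6.12 and 6.71 in libraries B and C. The highest control was 3.38 times the lowest, and the highest AP1AR-DT OE library 2.44 times the lowest. Log2FC was -0.53 with an SE of 0.52 and a 95% interval of -1.75 to 0.70 (edgeR adjusted P = 0.647, exact permutation p = 0.7), so that ratios from 0.297 to 1.62 lay inside the interval. Log2FC of Nkx2-2 was -1.05 without library A and -0.26 without control 2.

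Pdgfra had the smallest standard error of the 8 genes. Its normalized CPM was 63.3, 72.9 and 63.1 in controls 1 to 3 and 58.9, 58.5 and 54.1 in libraries A to C. Every AP1AR-DT OE library lay below every control, by little, since 58.9 in library A was next to 63.1 in control 3. The means were 66.5 ± 5.60 and 57.2 ± 2.70 (SD, n = 3 each), a ratio of 0.860 (95% interval 0.732 to 1.01). Log2FC was -0.22 (SE 0.099, edgeR adjusted P = 0.349), and an exact two-sided permutation test gave p = 0.1, the smallest value that 3 mice against 3 allow. The fitted change was smaller than the threshold of 0.32 for a DEG. It kept its sign in all 15 alternative fits, from -0.25 to -0.12.

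Cspg4 had a higher mean in AP1AR-DT OE mice, without passing the test. Its normalized CPM was 24.7, 31.6 and 22.3 in controls 1 to 3 and 30.5, 28.6 and 31.2 in libraries A to C, so control 2 was higher than every AP1AR-DT OE library. The means were 26.2 ± 4.82 and 30.1 ± 1.32 (SD, n = 3 each), with a Log2FC of 0.20 (SE 0.15, 95% interval -0.14 to 0.55, edgeR adjusted P = 0.528, exact permutation p = 0.4). Without control 2, Log2FC of Cspg4 was 0.37 and passed the DEG thresholds, while its adjusted P was 0.336 or higher in every alternative fit. Gpr17 had the same order of control libraries as Cspg4 and Pdgfra. It was measured at 56.0, 70.8 and 50.3 in controls 1 to 3 and at 68.6, 65.8 and 58.1 in libraries A to C, and Log2FC was 0.12 (SE 0.15, 95% interval -0.22 to 0.46, edgeR adjusted P = 0.716, exact permutation p = 0.5). Log2FC of Gpr17 was 0.28 without control 2 and 0.030 without control 3. Vcan was lower on average in AP1AR-DT OE mice, again with overlap. Its normalized CPM was 26.6, 18.8 and 20.0 in controls 1 to 3, and 16.6, 13.2 and 22.1 in libraries A to C. Library C lay above 2 of the controls, and Log2FC was -0.34 (SE 0.22, 95% interval -0.86 to 0.19, edgeR adjusted P = 0.490, exact permutation p = 0.3). Without library C, it was -0.54 and passed the DEG thresholds, with an adjusted P of 0.270 or higher in every alternative fit.

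The 8 genes differed in base composition, and Log2FC in these libraries moved with GC content. The longest transcripts of Sox10, Olig1, Cspg4 and Olig2 held between 58.5% and 61.8% GC, and those of Nkx2-2 and Gpr17 55.7% and 53.4%. Pdgfra and Vcan held 48.1% and 43.7%. The median Log2FC of tested genes within 2 percentage points of the same GC content was 0.24 around Sox10, 0.23 around Olig1, 0.20 around Cspg4 and Olig2, 0.14 around Nkx2-2 and 0.10 around Gpr17, but -0.040 around Pdgfra and -0.17 around Vcan. With a smooth curve on GC content taken out of each library, Olig1 was a DEG with a Log2FC of -0.43 (SE 0.13, edgeR adjusted P = 0.536). It was the only one of the 8, where 7.17% of all tested genes were DEGs after this correction. Corrected Log2FC was -0.31 for Olig2, -0.22 for Sox10, whose sign turned, and -0.68 for Nkx2-2. For the other genes it was -0.18 for Pdgfra, -0.18 for Vcan and 0.0099 for Gpr17, and Cspg4 went from 0.20 to -0.018, which also turned its sign.

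**Figure D2:**
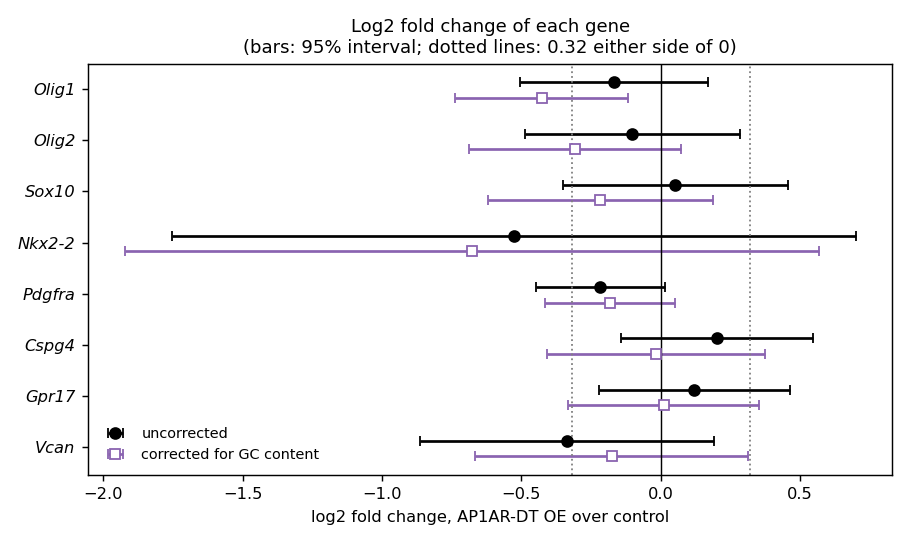
Log2FC of AP1AR-DT OE over control mice (horizontal axis) for each of the 8 genes, without correction (filled circles) and with each library corrected for GC content (open squares); bars are 95% intervals and dotted lines mark 0.32 on either side of 0. All 8 uncorrected intervals include 0, and after correction that of Olig1 lies below 0.

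Between control mice, Olig1, Olig2 and Sox10 took the order of the mature myelin genes, and the other 5 genes did not. These 3 factors were lowest in control 1 and highest in control 3 among the controls, as were all 12 myelin genes listed. The share of all tested genes in this order was not counted. Of markers given below, control 3 was the highest control for 7 of 8 microglial, 7 of 8 fibroblast and 6 of 8 neuronal genes. It was so for 10 of 10 choroid plexus, 5 of 8 astrocyte, 4 of 10 hypothalamic and 3 of 8 pericyte markers. Control 3 was 1.45 times control 1 for Olig1, 1.53 times for Olig2 and 1.59 times for Sox10. The same ratio was between 1.70 and 2.47 in the 12 myelin genes, with a median of 2.10. It was 3.24 for Nkx2-2, which was similar in controls 2 and 3. For the surface and matrix genes the ratio was 0.996 for Pdgfra, 0.901 for Cspg4, 0.897 for Gpr17 and 0.751 for Vcan. Pdgfra, Cspg4 and Gpr17 were highest in control 2, and Vcan in control 1. These ratios compare single mice, have no error of their own and were not tested. Among the AP1AR-DT OE libraries the highest level was between 1.12 and 1.16 times the lowest for Olig1, Olig2 and Sox10. Without control 3, Log2FC was -0.014 for Olig1, 0.041 for Olig2 and 0.26 for Sox10, and 0 of the 8 genes were DEGs. Without control 1, Log2FC of Olig1 was -0.29, with an unadjusted P under 0.05 but below the fold threshold.

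**Figure D3:**
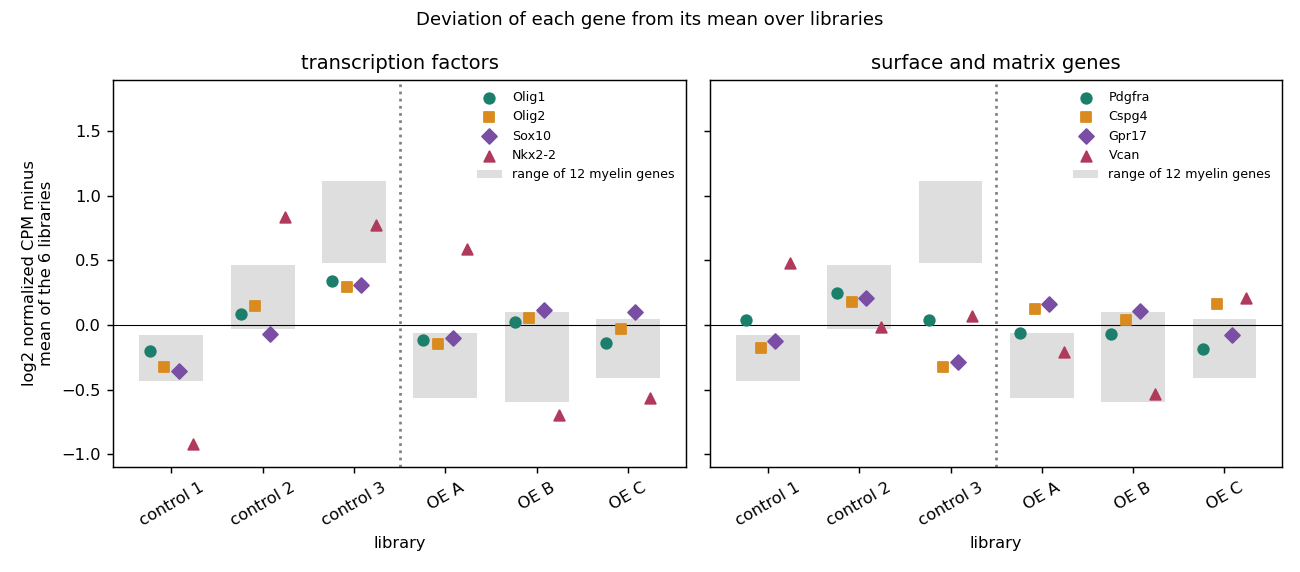
Log2 normalized CPM of each gene minus its mean over the 6 libraries (vertical axis), for transcription factors (left) and surface and matrix genes (right); grey bars span 12 mature myelin genes and the dotted line separates control from AP1AR-DT OE libraries. In control 3 the bar of myelin genes lies above 0 and Nkx2-2 lies within it. Olig1, Olig2 and Sox10 lie between 0 and the bar, Vcan and Pdgfra just above 0, and Cspg4 and Gpr17 below 0.

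Mature myelin genes were lower in AP1AR-DT OE mice where they passed the test. Each DEG named from these and the following lists of glial, vascular and neuronal genes had an adjusted P between 0.295 and 0.325 by edgeR. Of the 12, 5 were downregulated and 0 upregulated, where 7.15% of all tested genes were downregulated and 5.1% upregulated, and the median Log2FC was -0.44. Their summed normalized CPM was 5490, 7038 and 11613 in controls 1 to 3 and 5529, 5619 and 5643 in libraries A to C, so control 1 was below the AP1AR-DT OE libraries and control 3 far above. Mbp, which encodes myelin basic protein, had a Log2FC of -0.40 (edgeR adjusted P = 0.458) and Mog, which encodes an outer myelin glycoprotein, one of -0.30 (edgeR adjusted P = 0.553). Ermn, which encodes the cytoskeletal protein ermin of mature oligodendrocytes, had a Log2FC of -1.02 (SE 0.30), or -0.62 without control 3, and was a DEG in all 15 alternative fits. Ugt8a, the enzyme of galactosylceramide synthesis, and Mobp had a Log2FC of -0.82 and -0.85. Without control 3 these were -0.51 and -0.39. The call of Mobp was lost without library A, B or C in turn, and that of Ugt8a without control 3, library A or library B and after correction for GC content. The count of myelin DEGs was 3 without control 3, 9 without control 1, 1 without library A, 1 without library B and 2 after correction for GC content.

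The other genes of the lineage gave 10 DEGs among 42 tested of 43 listed, 3 upregulated and 7 downregulated, beside the 5.1% and 7.15% of all tested genes. The groups did not overlap for 17 of the 42, against 22.4% of all tested genes, and the median Log2FC was -0.21. Of the 42, 0 passed an adjusted P under 0.05 by edgeR, where 0.0275% of all tested genes did, while 11 had an unadjusted P under 0.05 and DESeq2 gave an adjusted P under 0.05 for Sox5, Pcdh15 and Lims2, and for 2.06% of all tested genes. The number of DEGs was 5 without library A, 6 without library B, 15 without control 1 and 16 without library C.

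Other genes of precursor cells included 4 downregulated and 1 upregulated gene among 13, beside 7.15% and 5.1% of all tested genes. Sox5, a partner factor that holds precursors back from differentiation, was at 25.7, 32.6 and 26.0 normalized CPM in controls 1 to 3 and at 19.8, 18.6 and 19.8 in libraries A to C. The 3 AP1AR-DT OE libraries were close to each other and below every control (Log2FC -0.53, SE 0.13). Pcdh15, which encodes a protocadherin, was at 19.1, 24.6 and 12.8 in controls and at 5.90, 7.53 and 11.6 in libraries A to C. Library C came close to control 3, and Log2FC was -1.18 (SE 0.32). Matn4, which encodes the matrix protein matrilin-4, was at 10.4, 11.5 and 11.4 in controls and at 15.2, 15.0 and 14.2 in libraries A to C, above every control (Log2FC 0.42, SE 0.12). These 3 genes remained DEGs in all 15 alternative fits. Lhfpl3 fell from 62.4 ± 6.52 to 45.5 ± 7.29 normalized CPM (SD, n = 3 each; Log2FC -0.46), a call lost without library A, without library B and after correction for GC content, where Log2FC was -0.22.

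Genes of committed and newly formed oligodendrocytes gave 1 upregulated and 1 downregulated gene among 11, beside 5.1% and 7.15% of all tested genes. Lims2, which encodes a focal adhesion protein, was at 1.60, 1.55 and 2.72 normalized CPM in controls and at 2.98, 10.2 and 10.6 in libraries A to C, so that library A lay next to control 3 while B and C were far above. Log2FC was 2.02 (SE 0.50), kept as a DEG in all 15 alternative fits. Itpr2, an intracellular calcium channel, fell from 21.2 ± 2.22 to 16.7 ± 0.560 (SD, n = 3 each; Log2FC -0.35), a call lost when control 2, control 3, library A or library B was left out and after correction for transcript length, where Log2FC was -0.18. Lims2 and Gpr17 lie on opposite strands of the same locus and share 188 exonic bases of the 5195 of Gpr17. Use of strand in counting was not given in the sources used here, so reads from these bases could have been counted for either gene. Gpr17 was highest in control 2 and Lims2 in library C.

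Of the other regulators of the lineage, 18 of 19 were tested. Of these, 2 were downregulated and 1 upregulated, beside 7.15% and 5.1% of all tested genes. Sox9, a factor of glial specification that astrocytes keep, fell from 102 ± 8.55 to 75.6 ± 9.16 normalized CPM (SD, n = 3 each; Log2FC -0.43, SE 0.12) and remained a DEG in all 15 alternative fits. Zeb2, a factor that promotes myelination, was lower (Log2FC -0.57, SE 0.22), with control 3 at 109 and every other library between 47.5 and 71.8. Hes5, a Notch target that delays differentiation, rose from 35.4 ± 5.43 to 50.4 ± 13.01 (SD, n = 3 each; Log2FC 0.51, SE 0.20), with 65.3 in library A. Leaving out control 3 or library A ended both calls, library B that of Zeb2, and control 1 that of Hes5. Log2FC was -0.31 for Zeb2 without control 3 and 0.28 for Hes5 without library A. After correction for GC content or for transcript length neither was a DEG. Nkx6-1 was listed with too few counts to be tested.

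Genes that act with PDGFRA and versican were examined beside them, where 12.2% of all tested genes were DEGs. Of the ligands and the other receptor of the PDGF family, Pdgfb was upregulated and Pdgfd downregulated among 5 tested. Pdgfa, which encodes the main ligand of PDGFRA, had a Log2FC of -0.053 (SE 0.11, edgeR adjusted P = 0.843). Pdgfb was at 21.5, 22.3 and 21.4 normalized CPM in controls and at 32.6, 35.4 and 25.3 in libraries A to C, above every control (Log2FC 0.52, SE 0.14). Pdgfd was at 11.0 in control 3 and at 3.86 or less in every other library, with a Log2FC of -1.28 (SE 0.48), a call lost by limma-voom and when control 3 or any 1 of the AP1AR-DT OE libraries was left out. Without control 3 its Log2FC was -0.49. After correction for GC content neither ligand was a DEG, and Log2FC of Pdgfb was 0.27. Among 13 genes of lecticans, their partners and proteases, 1 was downregulated, the receptor phosphatase gene Ptprz1, which is also listed as a precursor gene (294 ± 26.3 to 215 ± 53.3 normalized CPM, SD, n = 3 each; Log2FC -0.45). Its call was lost when any library other than C was left out, after correction for GC content or for transcript length, and with library totals without TMM. Without library B its Log2FC was -0.27.

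Genes of dividing cells, which are not specific to precursors, had low levels. Of all tested genes, 12.2% were DEGs. None of 8 proliferation genes was a DEG by edgeR (0 with an unadjusted P under 0.05 and 0 DEGs by DESeq2, 1 by limma-voom), and their summed normalized CPM was between 9.58 and 14.1 in the 6 libraries. Top2a, a topoisomerase of dividing cells, had a Log2FC of -0.67 (SE 0.41, edgeR adjusted P = 0.456). Cdk1, the kinase of mitotic entry, was counted at 0 in libraries A and B and at 0.763 normalized CPM or less elsewhere (Log2FC -1.52, SE 1.45, edgeR adjusted P = 0.635).

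Other cells that carry Pdgfra, Cspg4 or Nkx2-2 transcripts were checked by their own markers. Of all tested genes, 5.1% were upregulated and 7.15% downregulated. Pericytes express Cspg4, and of 8 pericyte markers 1 was upregulated, Vtn (Log2FC 0.57, lost without control 1, control 2 or library B, with 0.35 without the latter), while their summed level was between 84.6 and 97.9 normalized CPM in controls and between 92.3 and 115 in AP1AR-DT OE mice. Fibroblasts of meninges and vessels express Pdgfra, and 0 of their 8 markers were DEGs by edgeR, with 0 at an unadjusted P under 0.05 and 0 DEGs by DESeq2. The 2 with the smallest P were the collagen genes Col1a1 (Log2FC 0.51, edgeR adjusted P = 0.399) and Col3a1 (Log2FC 0.66, edgeR adjusted P = 0.507). The summed level of fibroblast markers was 259 in control 3, of which Igf2 made up 232, and between 23.5 and 85.4 elsewhere. Pdgfra was at 63.1 in control 3 and at 63.3 in control 1, where that sum was lowest. Because Igf2 made up most of the sum in control 3, the sum cannot rank the libraries by fibroblast content. As a mean of centred log2 levels, the 8 markers were at -0.54 in control 1, 0.70 in control 3 and 0.73 in library B. Neurons of the ventral forebrain can express Nkx2-2. The summed hypothalamic markers were at 649 in control 2, 102 in control 3 and 34.7 in library A, where Nkx2-2 was at 17.7, 16.98 and 14.9. In control 1 and libraries B and C that sum was between 34.9 and 60.7, and Nkx2-2 was between 5.24 and 6.71. As a mean of centred log2 levels, the hypothalamic markers were at 2.62 in control 2, 1.52 in control 3 and -1.14 in library A. That mean was -1.47 in control 1, -0.88 in library B and -0.66 in library C. The part of these cells in the values of the 8 genes was not tested.

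Markers of other brain cells were counted as well, where 7.15% of all tested genes were downregulated and 5.1% upregulated. Of 8 astrocyte markers 2 were downregulated, Slc39a12 (Log2FC -0.35) and Aqp4 (Log2FC -0.60), and both calls were lost without control 3, where Log2FC of Aqp4 was -0.22. The call of Aqp4 was also lost without any 1 of the AP1AR-DT OE libraries, by limma-voom and after correction for transcript length. Of 8 microglial markers 3 were upregulated, Trem2 (Log2FC 0.42), Tmem119 (Log2FC 0.41) and C1qa (Log2FC 0.54), and of 8 neuronal markers 1, Rbfox3 (Log2FC 0.40). The microglial and neuronal calls were each lost without control 2, without library A and without library B. Those of Tmem119 and C1qa were lost without control 1 and after correction for transcript length too, and that of Rbfox3 without control 3. After correction for GC content 0 of the markers of astrocytes, microglia, pericytes and neurons were DEGs, beside 7.17% of all tested genes. Choroid plexus markers gave 8 downregulated genes among 9 tested. That number was 2 by DESeq2, 0 by limma-voom, 0 without control 3, library A or library B, and 4 without library C. Hypothalamic markers gave 5 downregulated genes among 9 tested. The number of hypothalamic DEGs was 3 by DESeq2, 1 by limma-voom, 2 with at least 10 counts in every library, 2 without control 3, and 3 without control 2, library A or library C. DESeq2 gave no P-value for most of the 8 choroid plexus genes and for at least 1 hypothalamic gene. Such genes were not counted as DEGs by DESeq2.

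**Figure D4:**
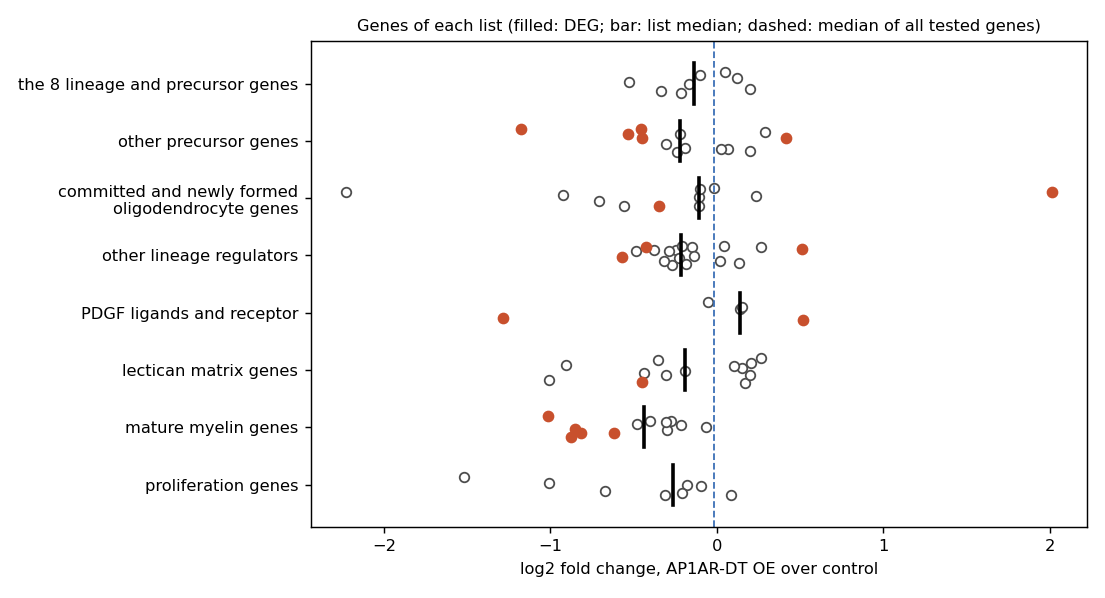
Log2FC of AP1AR-DT OE over control mice (horizontal axis) for each tested gene of the lists (rows), with 1 point per gene, filled for DEGs; black bars are list medians and the dashed line is the median of all tested genes. The 8 lineage and precursor genes lie between -0.53 and 0.20 with 0 filled points, and the 12 mature myelin genes are all below 0, 5 of them filled.

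Levels of the 8 genes were compared with each other per kilobase of their longest transcript, in control mice. Olig1 was the highest at 179 ± 33.0 normalized CPM per kilobase (SD, n = 3). Sox10 and Olig2 followed at 30.9 ± 7.20 and 26.3 ± 5.54. Their ranges overlapped, while Sox10 was the higher within every control. Gpr17 and Pdgfra were next at 11.4 ± 2.04 and 9.72 ± 0.819, also with overlapping ranges and with Gpr17 the higher within every control. Nkx2-2 was at 6.28 ± 3.30 and overlapped with Cspg4 at 3.22 ± 0.594, and Vcan was the lowest at 1.76 ± 0.339. The longest transcript need not be the one expressed, which matters most for Pdgfra and Vcan with 9 annotated transcripts each, while Olig1, Olig2 and Gpr17 have 1.

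The genes whose profile over the 6 libraries was most like the mean profile of the 8 were Asxl3, Ncbp3 and Zdhhc17. Likeness was the root mean square difference of centred log2 normalized CPM, and it was 0.036, 0.038 and 0.038 for these genes, out of 14133 genes compared. The mean profile itself ran from -0.20 in control 1 to 0.20 in control 2. It was not a pattern that the 8 genes shared. In control 1 Nkx2-2 was at -0.92 and Vcan at 0.48, and in control 3 Sox10 was at 0.31 and Cspg4 at -0.33.

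On GRCm38 with the GENCODE vM21 annotation, Olig1 spans 91269772 to 91271933 and Olig2 91225457 to 91228677 of chromosome 16, both on the plus strand. Pdgfra spans 75152292 to 75198215 of chromosome 5 and Cspg4 56865033 to 56899870 of chromosome 9, on the plus strand. Sox10 spans 79154908 to 79165240 of chromosome 15, Vcan 89655312 to 89742509 of chromosome 13 and Nkx2-2 147177546 to 147194243 of chromosome 2, on the minus strand. Gpr17 lies on the minus strand of chromosome 18. No 100-base stretch of their longest transcripts was found in a transcript of another gene. Besides Gpr17, exons of 3 of the 8 overlapped other genes on the opposite strand. Nkx2-2 shared 278 of 2875 exonic bases with Nkx2-2os, Olig1 shared 157 of 2162 with Gm15966, and Pdgfra shared 456 of 10024 with Gm42802 and 166 with Gm42803, which could add or remove counts where strand was not used.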

How the data were processed

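RNA-seq of brain tissue of 3 AP1AR-DT OE and 3 control mice was analysed. Per the study's methods, the authors used FastQC for quality, Bowtie2 at default settings for mapping to GRCm38, and StringTie with GENCODE genes. The authors deposited whole-number counts per gene without normalization. Bowtie2 does not split reads at introns, so junction reads map less often. The submitters' processing notes name other tools and another build (TopHat2 2.0.4, HTSeq, Cuffdiff, edgeR 2.6.12, mm9), so which pipeline made the counts is unsettled. The table also holds the authors' fold changes and P-values, which were not used. Nothing states that the 3 mice of a group were processed separately up to sequencing, so P-values measure the spread between these libraries. A chi-square per gene of 46.8 or more separated all pairs of libraries, so none was a duplicate.

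Counts were tested with edgeR 4.0.16 in R 4.3.3 (filterByExpr, TMM, quasi-likelihood F-test, all 6 libraries, no covariate, Benjamini-Hochberg adjustment over 21844 genes). The common biological coefficient of variation was 0.313. Intervals are 95% intervals from the moderated standard error. Exact permutation tests used log2 normalized CPM. Of the 52390 identifiers, 52081 were found in GENCODE vM21, and 21817 tested genes had a GC content. Correction for GC content or length used natural splines with 5 degrees of freedom, fitted on genes with mean log2 CPM above 2, as offsets. Alternatives were DESeq2 1.42.0, its size factors, totals without TMM, limma-voom (limma 3.58.1), no filter, at least 10 counts in every library, both corrections, mitochondrial genes left out, and each library left out in turn. The models were tested on simulated counts. Python 3.11.15 with pandas 2.3.3, scipy 1.17.1 and matplotlib 3.10.9 made the tables and figures. Sequences are from RefSeq.

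The genes, lists, tests and alternatives were chosen with earlier results of these data known. The genes named are the 8, Mbp and Mog, up to 4 DEGs per list in order of P or, in a list with 0 DEGs, the 2 genes with the smallest P, and the 3 genes with the most similar profile. Choroid plexus and hypothalamic genes are given by counts only. Pdgfa, Slc17a7, Igf2, Kcne2 and Nkx6-1 were named after their values were seen. Some genes that the rule names are not reported here.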

Additional observations from a re-analysis of the deposited data

How the results depend on the processing

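No paired analysis was possible because the control mice are numbered 1 to 3 and the AP1AR-DT OE mice 3 to 5, and the columns of the latter do not give the mouse. DEGs among the 8 genes numbered 0 to 1 when each library was left out in turn and 1 after correction for GC content. DEGs among the other lineage genes numbered 5 to 16 when each library was left out. Over all tested genes there were 2675 DEGs, 1566 after correction for GC content and 1430 to 3508 with a library left out. At an adjusted P under 0.05, edgeR called 6 genes and DESeq2 450. Log2FC turned its sign after correction for GC content in Cspg4 (-0.018) and Sox10 (-0.22), and Olig1 passed the thresholds there (-0.43). When each library was left out, Log2FC was 0.11 to 0.37 for Cspg4, -0.26 to 0.041 for Olig2, -0.092 to 0.26 for Sox10, -0.54 to -0.17 for Vcan, -1.05 to -0.26 for Nkx2-2, 0.030 to 0.28 for Gpr17, -0.29 to -0.014 for Olig1 and -0.25 to -0.14 for Pdgfra, and the sign turned for Olig2 without control 3 and for Sox10 without control 1. Kcne2, a choroid plexus marker, had a Log2FC of -5.12 with all libraries and between -6.35 and 0.32 with a library left out, above 0 without control 3. Of the other single genes named, 144 values over all alternatives kept their direction and lost the thresholds and 406 stayed on the same side; the causes were not tested. The depth gave at least 213 counts per library for each of the 8 genes; how much of the width of their intervals is counting error was not tested.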
